A study of Mus musculus with 6 samples.

Results

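The core genes of programmed cell death were described in organoids of mammary epithelium, pieces of duct and alveolus freed from the gland by digestion. They came from mice with Wwox deleted in epithelium by a Cre recombinase and from mice without that deletion. The genes were 35 named ones, covering the BCL2 family, the caspases, the death receptors with their ligand and adaptors, the proteins released from mitochondria and the inhibitor of apoptosis (IAP) proteins. A gene was taken up where a probe set of the array carried exactly its symbol and no other, which held for 33 of the 35 among 18193 genes measured. Bax and Ripk1 are not analysed here. Each gene was represented by its brightest probe set, the one with the highest mean over the 6 arrays, and the remaining 50 of the 83 probe sets of these genes were described beside it.

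Total RNA of each mouse had been hybridised to its own Affymetrix whole genome mouse array. The 3 KO mice carried BK5-Cre and floxed Wwox on both alleles (BK5-Cre+; Wwox flox/flox), and the 3 WT mice carried the same floxed alleles and no Cre (BK5-Cre-; Wwox flox/flox). All were 8 weeks old and of a mixed background of 129/J and C57BL/6, and the arrays are called WT1 to WT3 and KO1 to KO3 after the replicate numbers. The comparison asks which transcripts differ once Wwox, a gene whose expression is often lost in breast cancer, is removed from the epithelium. The bovine keratin 5 promoter that drives this Cre is active in epithelial precursors before birth, so the loss dates from development, and effects of Cre and of the lost Wwox cannot be told apart because no WT mouse carried Cre.

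Apoptosis is reached through mitochondria or through receptors on the cell surface. In the mitochondrial route, BH3-only proteins relieve the restraint that Bcl2, Bcl2l1 and Mcl1 place on the pore formers of the outer membrane, cytochrome c leaves, and Apaf1 assembles around it to activate caspase-9. In the receptor route, ligands such as Fas ligand and TRAIL recruit Fadd and caspase-8 to their receptors, with Cflar as a brake, and IAP proteins restrain the caspases downstream. In the mammary gland these genes are best known for the clearing of the duct lumen and for the regression of the gland after weaning.

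The values are log2 intensities after RMA, a method that corrects background, normalizes the arrays to 1 distribution and summarises the probes of a probe set, and a change is KO minus WT on that scale. Called means an unadjusted p under 0.01 and at least a 2-fold change in limma, the limits that the study used, and adjusted p-values are those of Benjamini and Hochberg over all 45037 probe sets. The level of 1 probe set cannot be set against that of another.

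The brightest Wwox probe set stood at 7.77, 7.63 and 7.72 in WT1 to WT3 and 6.23, 5.87 and 5.96 in KO1 to KO3, a change of -1.69 ± 0.13 (SE, limma adjusted p = 0.0228). Its 3 other probe sets ranged from -0.24 to -1.04, and the last of these was called. Among markers of luminal cells, all 9 measured lay above the 75th percentile on every array, and 7 of 10 basal markers did. Markers of other cell types shifted on average. All 32 measured markers of macrophages, dendritic cells and lymphocytes had a lower mean in KO (3 called, median -0.71). Their median level ran from 6.08 to 7.59 in WT and from 5.83 to 6.42 in KO, so the arrays overlapped. The groups were apart for 5 of the 32, where 16.1% of all genes were apart and lower. All 13 endothelial markers were higher (3 called, median 0.63), as were 9 of 10 fibroblast markers (1 called, median 0.44). RNA quality moved too: the 3′ minus 5′ difference, averaged over Gapdh and β-actin and larger where RNA is broken or copied incompletely, was 0.96, 2.13 and 1.80 in WT1 to WT3 and 0.55, 0.60 and 0.54 in KO1 to KO3. All WT arrays lay above all KO arrays in this difference, so a fit that holds it cannot tell RNA quality and genotype apart. In such bulk RNA, fewer cells of a type and less RNA per cell cannot be told apart, and the part of marker levels and RNA quality in the results below was not tested beyond the fits given beside them.

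Of the 33 genes, 23 were lower and 10 higher in KO on the brightest probe set, where 61.2% of all genes were lower. Only Pmaip1, the BH3-only protein Noxa, was called. Across all genes 0.462% were called lower and 0.517% higher. At an unadjusted p under 0.05, 11 of the 33 were lower against a background of 13% of all genes, and 1, Xiap, was higher against 6.17%. At an unadjusted p under 0.01, 7 were lower (background 4.64%) and 0 were higher. None reached an adjusted p under 0.05, which 0.137% of all genes did, and the smallest adjusted p among the 33 was 0.0606, for Tnfsf10. The groups did not overlap for 11 genes lower in KO (16.1% of all genes) and for 1 higher (7.2%). The median change of the 33 was -0.17, beside -0.06 over all genes.

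**Figure D1:**
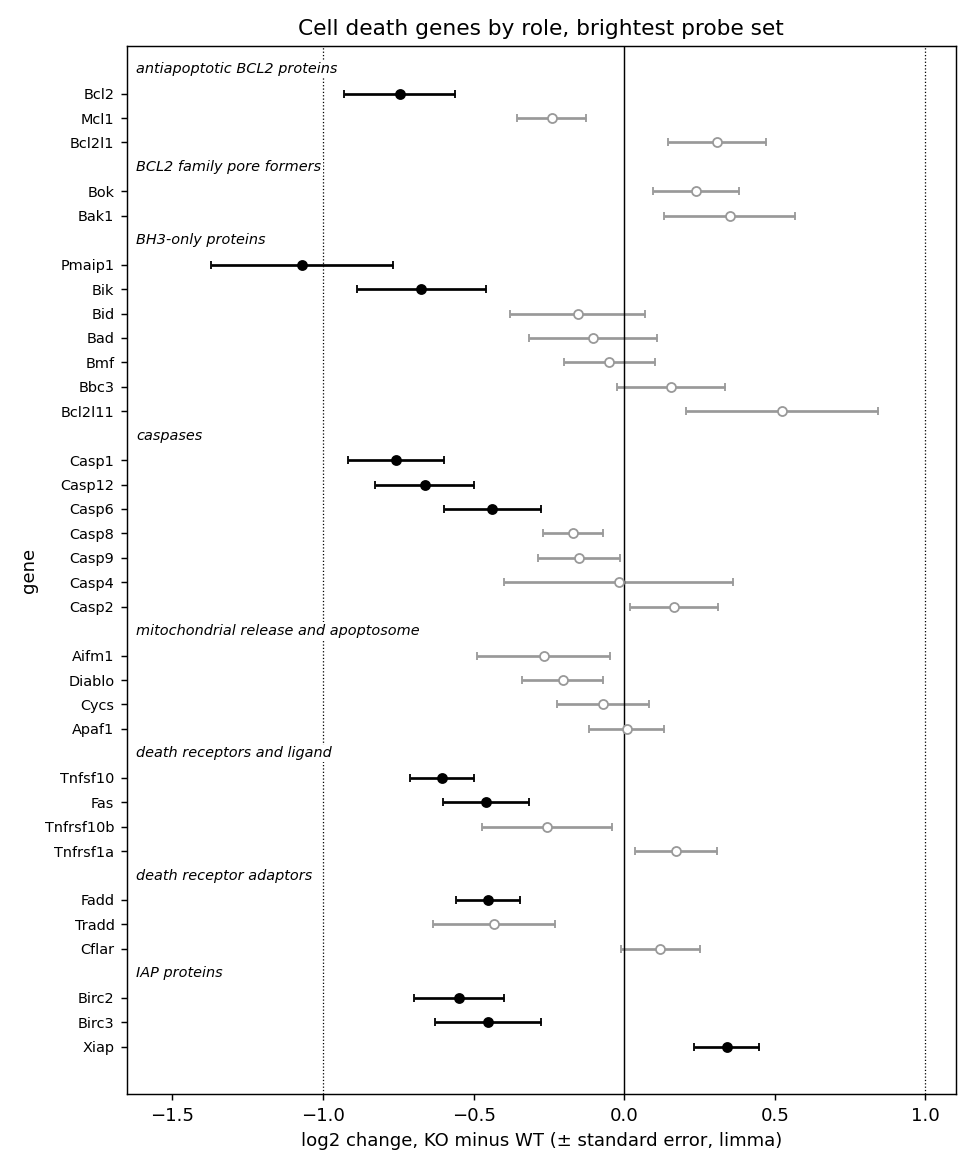
The log2 change, KO minus WT, of the brightest probe set of each of the 33 genes, grouped by role, with the standard error from limma as bars; filled points have an unadjusted p under 0.05 and dotted lines mark a 2-fold change. Pmaip1 is the only gene beyond a dotted line, at -1.07, and Xiap is the only filled point to the right of 0.

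The genes lower in KO at an unadjusted p under 0.05 included the death ligand Tnfsf10, the death receptor Fas and the inflammatory caspases Casp1 and Casp12. Casp1, Casp4 and Casp12 lie next to each other on mouse chromosome 9 with 0 protein-coding genes between them in the RefSeq annotation. The promoters of these caspases are shown because Casp4, between the other two, did not pass that limit without a covariate. Its standard error of 0.38 was wide, so a change like theirs is not excluded. Those of Fas and Tnfsf10, which passed the limit, are shown beside them. Each sequence is RefSeq's for GRCm38.p6, from 250 bases before to 50 bases after the annotated start, 5′ to 3′ in the direction of transcription, and for Casp4 the first of 2 listed starts is given. Capitals mark TTCNNNGAA, the GAS element to which STAT factors bind. The table used held promoters for 29 of the 33 genes.
Casp1, chr9:5298267-5298566, plus strand: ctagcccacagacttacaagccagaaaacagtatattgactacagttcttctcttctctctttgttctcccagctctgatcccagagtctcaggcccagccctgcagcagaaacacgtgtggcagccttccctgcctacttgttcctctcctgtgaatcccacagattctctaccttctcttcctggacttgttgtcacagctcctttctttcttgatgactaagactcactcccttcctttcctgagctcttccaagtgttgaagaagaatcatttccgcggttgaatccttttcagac
Casp4, chr9:5308599-5308898, plus strand: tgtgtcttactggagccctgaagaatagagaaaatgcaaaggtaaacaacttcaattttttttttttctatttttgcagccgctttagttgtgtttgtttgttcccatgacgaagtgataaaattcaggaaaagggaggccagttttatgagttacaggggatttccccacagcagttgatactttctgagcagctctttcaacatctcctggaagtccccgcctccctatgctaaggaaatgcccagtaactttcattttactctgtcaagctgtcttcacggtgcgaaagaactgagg
Casp12, chr9:5345226-5345525, plus strand: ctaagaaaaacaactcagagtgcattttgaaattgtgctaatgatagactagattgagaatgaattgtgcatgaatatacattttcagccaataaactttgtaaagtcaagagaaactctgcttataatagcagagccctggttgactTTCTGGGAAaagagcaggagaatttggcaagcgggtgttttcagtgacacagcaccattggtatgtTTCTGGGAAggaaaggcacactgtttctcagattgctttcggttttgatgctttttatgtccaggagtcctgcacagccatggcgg
Fas, chr19:34290409-34290708, plus strand: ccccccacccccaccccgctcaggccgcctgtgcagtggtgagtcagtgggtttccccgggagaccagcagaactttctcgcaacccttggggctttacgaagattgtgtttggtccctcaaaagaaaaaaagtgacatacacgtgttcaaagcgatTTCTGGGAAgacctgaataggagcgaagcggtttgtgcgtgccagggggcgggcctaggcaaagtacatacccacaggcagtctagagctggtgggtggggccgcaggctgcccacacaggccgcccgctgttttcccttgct
Tnfsf10, chr3:27316827-27317126, plus strand: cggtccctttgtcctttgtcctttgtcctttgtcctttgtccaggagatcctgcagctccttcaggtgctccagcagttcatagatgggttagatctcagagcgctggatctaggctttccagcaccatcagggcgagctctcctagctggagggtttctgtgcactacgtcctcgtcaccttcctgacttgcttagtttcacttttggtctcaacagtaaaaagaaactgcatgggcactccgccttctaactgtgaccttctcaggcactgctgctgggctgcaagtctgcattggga

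The letters TTCNNNGAA, searched on both strands, stood in 8.3% of 32851 promoters in the table and in 3 of the 41 promoters listed for the 29 genes, those of Casp12, Fas and Tnfrsf1a. In Casp12 they occurred at 102 to 94 and again at 36 to 28 bases before the start, and in Fas at 93 to 85 bases before it. All 3 stretches read TTCTGGGAA, which 1.28% of all promoters hold; these exact letters were chosen after the matches had been seen. The interferon-response letters GAAANNGAAA stood in 3.44% of all promoters and in 1 of the 41, that of Cflar. The NF-kB consensus stood in 8.46% of all promoters and in 7 of the 41, which belong to Aifm1, Bbc3, Bcl2l1, Bmf, Casp4 and Xiap. The p53 decamer consensus stood in 8.36% and in 2 of the 41, those of Birc2 and Bmf. A match describes letters and says nothing of binding in these cells.

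Among the antiapoptotic BCL2 proteins, Bcl2 was lower in KO at an unadjusted p under 0.05, and neither Bcl2l1 nor Mcl1 passed that limit on its brightest probe set. Bcl2 stood at 7.87, 7.67 and 7.16 in WT1 to WT3 and 6.78, 6.79 and 6.90 in KO1 to KO3, so every WT mouse lay above every KO mouse and the KO mice lay close together. The means were 7.57 ± 0.36 (SD, n = 3 mice) for WT and 6.82 ± 0.07 (SD, n = 3 mice) for KO. The change of Bcl2 was -0.75 ± 0.18 (SE, limma adjusted p = 0.0983), and its unadjusted p of 0.00436 came with less than a 2-fold change. Its 4 other probe sets ranged from -0.42 to 0.05, and none passed an unadjusted p of 0.05. Mcl1, the short-lived survival protein of the family, stood at 12.58, 12.66 and 12.71 in WT1 to WT3 and 12.55, 12.28 and 12.39 in KO1 to KO3. Every KO mouse lay below every WT mouse, though KO1 and WT1 were close, and the change of Mcl1 was -0.24 ± 0.11 (SE, limma adjusted p = 0.308). The 5 other Mcl1 probe sets ranged from -0.20 to 0.06, with overlapping groups.

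Bcl2l1, which encodes Bcl-xL, gave different answers on its 4 probe sets. The brightest stood at 10.14, 9.87 and 9.91 in WT1 to WT3 and 10.10, 10.60 and 10.16 in KO1 to KO3, with KO1 among the WT values, and its change was 0.31 ± 0.16 (SE, limma adjusted p = 0.354). The third in brightness stood at 4.61, 4.50 and 4.33 in WT1 to WT3 and 5.35, 5.20 and 5.05 in KO1 to KO3, all KO mice above all WT mice, with a change of 0.72 ± 0.13 (SE, limma adjusted p = 0.0632). The second brightest was higher by 0.72 ± 0.20 (SE, limma adjusted p = 0.123). The dimmest, with low means of 3.92 in WT and 3.55 in KO, gave -0.37 ± 0.14 (SE, limma adjusted p = 0.201). Adding the 3′ minus 5′ difference to the fit took the change of the second brightest to 0.13 and that of the third to 0.57.

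The pore formers measured were Bak1 and Bok, and neither passed an unadjusted p of 0.05. Bak1, which opens the outer mitochondrial membrane, stood at 7.44, 6.56 and 6.97 in WT1 to WT3 and 7.24, 7.31 and 7.48 in KO1 to KO3, and its groups overlapped, with a change of 0.35 ± 0.22 (SE, limma adjusted p = 0.429). The change of Bok, a relative of Bak1, was 0.24 ± 0.14 (SE, limma adjusted p = 0.417).

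Of the 7 BH3-only genes 5 were lower and 2 higher in KO, and Pmaip1 and Bik were lower at an unadjusted p under 0.05. Only Pmaip1 passed the limits of a call. Pmaip1, a target of p53 that binds Mcl1, stood at 9.72, 9.17 and 8.54 in WT1 to WT3 and 8.35, 8.16 and 7.71 in KO1 to KO3. Every WT mouse lay above every KO mouse, but the lowest WT value and the highest KO value were close. The means were 9.14 ± 0.59 (SD, n = 3 mice) for WT and 8.07 ± 0.33 (SD, n = 3 mice) for KO, so WT was 2.10-fold above KO. The change of -1.07 ± 0.30 (SE, limma adjusted p = 0.125) passed the limits of a call at an unadjusted p of 0.00867. The call was lost without WT1, at -0.78, without WT2, at -1.05, and without KO1, KO2 or KO3, at -1.21, -1.11 and -0.89. It was also lost at -1.75 with RNA quality in the fit, at -0.71 with the immune markers in it, under cyclic loess, under ribosomal centring and with unmoderated variances, while its sign stayed negative in every alternative run. Pmaip1 has 1 probe set.

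Bik, a BH3-only protein of the endoplasmic reticulum, stood at 10.10, 9.92 and 9.89 in WT1 to WT3 and 8.80, 9.60 and 9.50 in KO1 to KO3. The groups did not overlap, and KO1 lay far below the other KO mice. Its change was -0.67 ± 0.21 (SE, limma adjusted p = 0.154), and its other probe sets gave -0.29 and -0.45. Bcl2l11, which encodes Bim, had the largest positive change of the 33, but WT3 alone lay below the rest, at 9.32, 9.04 and 8.02 in WT1 to WT3 and 9.11, 9.53 and 9.31 in KO1 to KO3. That change of 0.52 ± 0.32 (SE, limma adjusted p = 0.423) became 0.14 without WT3 and -0.00 with RNA quality in the fit, its 4 other probe sets ranged from -0.45 to -0.05, and with the immune markers in the fit it was called at 1.02. Bad, linked to loss of growth factors, Bid, which caspase-8 cleaves, Bmf, linked to loss of attachment, and Bbc3, a target of p53, gave -0.10, -0.15, -0.05 and 0.16, none at an unadjusted p under 0.05.

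Of the 7 caspases, Casp1, Casp12 and Casp6 were lower in KO at an unadjusted p under 0.05 and the other 4 did not pass it. Casp1, which matures interleukin-1β in the inflammasome, stood at 6.57, 6.75 and 7.09 in WT1 to WT3 and 6.19, 6.04 and 5.91 in KO1 to KO3. Its means were 6.81 ± 0.27 (SD, n = 3 mice) for WT and 6.05 ± 0.14 (SD, n = 3 mice) for KO, the groups were apart, and the change was -0.76 ± 0.16 (SE, limma adjusted p = 0.0759). Casp12, linked to inflammation and to endoplasmic reticulum stress, stood at 8.29, 8.70 and 8.56 in WT1 to WT3 and 8.13, 7.74 and 7.69 in KO1 to KO3 on the brightest probe set. The change was -0.66 ± 0.16 (SE, limma adjusted p = 0.0992), and its second probe set, at 8.35, 8.34 and 8.62 in WT1 to WT3 and 7.97, 7.69 and 7.93 in KO1 to KO3, gave -0.57 ± 0.13 (SE, limma adjusted p = 0.0897) with the groups apart as well. Their neighbour Casp4, the sensor of intracellular lipopolysaccharide (caspase-11), ranged widely at 7.70, 8.78 and 9.26 in WT1 to WT3 and 8.48, 8.93 and 8.28 in KO1 to KO3, and its change of -0.02 ± 0.38 (SE, limma adjusted p = 0.987) had the widest error of the caspases.

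The inflammatory caspases are also expressed by macrophages, and the immune markers were lower on average in KO, with median levels that overlapped between the groups. The part of macrophages in the changes was not tested, and the immune marker covariate pools macrophage, dendritic cell and lymphocyte markers. With the immune marker level as a covariate, which was chosen after seeing the data, the change of Casp1 was -0.94, that of Casp12 -0.81 and that of Fas -0.57. With the 3′ minus 5′ difference as a covariate these were -0.49, -0.30 and -0.22, and none kept an unadjusted p under 0.05. In the same fit Casp4 went from -0.02 to 1.20 and to an unadjusted p under 0.05, so that its contrast with Casp1 and Casp12 differs between the fits.

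Casp6, an executioner caspase, stood at 8.44, 8.19 and 8.59 in WT1 to WT3 and 7.81, 7.87 and 8.22 in KO1 to KO3, and KO3 lay above WT2. Its change was -0.44 ± 0.16 (SE, limma adjusted p = 0.201), and the other probe set gave 0.28. Casp8, the initiator of the receptor route, stood at 9.64, 9.71 and 9.57 in WT1 to WT3 and 9.44, 9.49 and 9.48 in KO1 to KO3, with the groups apart by little and a change of -0.17 ± 0.10 (SE, limma adjusted p = 0.409). The initiators of the mitochondrial and stress routes, Casp9 and Casp2, gave -0.15 and 0.17.

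**Figure D2:**
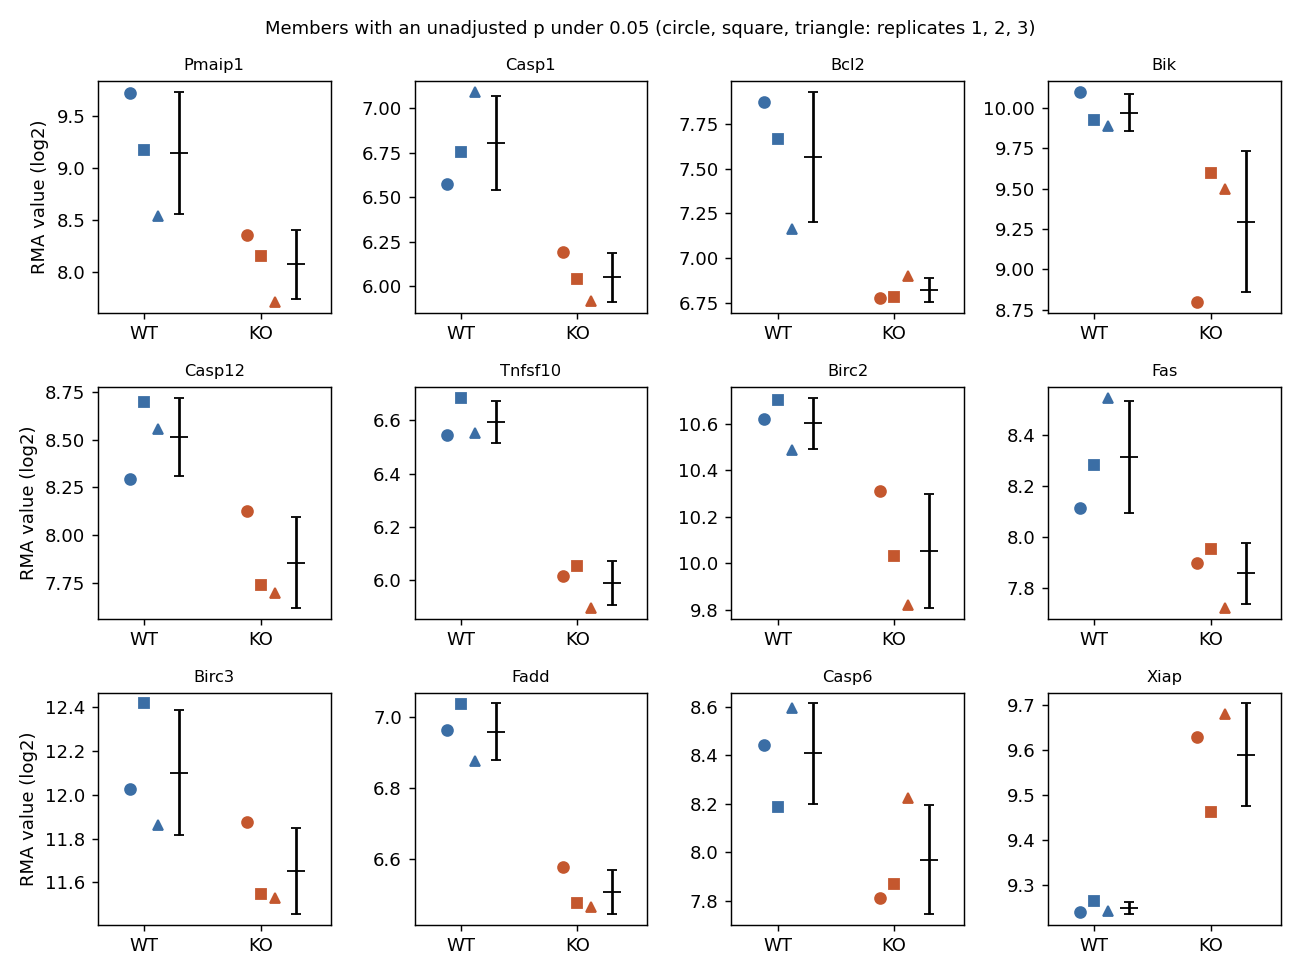
The RMA value (log2) of each mouse for the 12 genes with an unadjusted p under 0.05, with circle, square and triangle for replicates 1, 2 and 3 of a genotype and bars for mean and SD; vertical axes differ between genes. The groups overlap for Casp6 and Birc3, and for the other 10 they are apart.

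None of the 4 genes of mitochondrial release and the apoptosome passed an unadjusted p of 0.05. Apaf1, the scaffold of the apoptosome, stood at 7.10, 7.15 and 6.94 in WT1 to WT3 and 6.91, 7.20 and 7.11 in KO1 to KO3, with nearly equal groups and a change of 0.01 ± 0.12 (SE, limma adjusted p = 0.982). A p that misses the limit does not show that the levels were equal. Aifm1, a flavoprotein of mitochondria, had the largest change of the 4. It stood at 8.93, 9.35 and 9.62 in WT1 to WT3 and 9.27, 8.68 and 9.14 in KO1 to KO3, with overlapping groups. Its change was -0.27 ± 0.22 (SE, limma adjusted p = 0.560). Diablo, which displaces IAP proteins from caspases, stood at 8.67, 8.62 and 9.02 in WT1 to WT3 and 8.63, 8.54 and 8.53 in KO1 to KO3. Its change was -0.20 ± 0.135 (SE, limma adjusted p = 0.460), and Cycs (cytochrome c) gave -0.07.

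The ligand Tnfsf10 and the receptor Fas were lower in KO at an unadjusted p under 0.05, and the receptors Tnfrsf10b and Tnfrsf1a did not pass that limit. Tnfsf10, which encodes TRAIL, stood at 6.54, 6.68 and 6.55 in WT1 to WT3 and 6.02, 6.05 and 5.90 in KO1 to KO3, with the WT and KO mice each within a narrow range and well apart. Its means were 6.59 ± 0.08 (SD, n = 3 mice) for WT and 5.99 ± 0.08 (SD, n = 3 mice) for KO and its change was -0.60 ± 0.11 (SE, limma adjusted p = 0.0606). A second probe set, at 5.72, 6.21 and 5.93 in WT1 to WT3 and 5.19, 5.21 and 5.51 in KO1 to KO3, gave -0.65 ± 0.16 (SE, limma adjusted p = 0.0989), and the third gave -0.17. With RNA quality in the fit the change of the brightest was -0.49, still at an unadjusted p under 0.05, and with the immune markers in it -0.59. With RNA quality in the fit the second probe set was at -0.25 and no longer at an unadjusted p under 0.05. The change of its receptor Tnfrsf10b was -0.26 ± 0.22 (SE, limma adjusted p = 0.565). Fas stood at 8.11, 8.28 and 8.55 in WT1 to WT3 and 7.90, 7.95 and 7.72 in KO1 to KO3, with the groups apart and a change of -0.46 ± 0.14 (SE, limma adjusted p = 0.149). Tnfrsf1a, the main receptor of tumour necrosis factor, gave 0.17 ± 0.14 (SE, limma adjusted p = 0.544).

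Among the adaptors, Fadd was lower in KO, Tradd was lower without passing the limit, and Cflar pointed in both directions. Fadd, which links the receptors to caspase-8, stood at 6.96, 7.04 and 6.87 in WT1 to WT3 and 6.58, 6.48 and 6.47 in KO1 to KO3. Both groups were narrow and apart, the change was -0.45 ± 0.10 (SE, limma adjusted p = 0.0896), and the other, dimmer probe set gave -0.09. Tradd, the first adaptor of the tumour necrosis factor receptor, stood at 6.94, 7.03 and 7.52 in WT1 to WT3 and 6.78, 6.43 and 6.99 in KO1 to KO3, with KO3 level with the lower WT mice and a change of -0.43 ± 0.20 (SE, limma adjusted p = 0.301).

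Cflar encodes c-FLIP, the decoy that blocks caspase-8, and is its neighbour on chromosome 1. The brightest of its 5 probe sets stood at 8.38, 8.41 and 8.13 in WT1 to WT3 and 8.34, 8.60 and 8.34 in KO1 to KO3 and did not separate the groups, with a change of 0.12 ± 0.13 (SE, limma adjusted p = 0.673). A dimmer one stood at 7.19, 6.55 and 6.48 in WT1 to WT3 and 7.85, 7.59 and 7.82 in KO1 to KO3, all KO mice above all WT mice, and it rose by 1.01 ± 0.20 (SE, limma adjusted p = 0.0697), just past 2-fold. Another was higher by 0.78 ± 0.17 (SE, limma adjusted p = 0.0779), and yet another, at 7.68, 7.84 and 7.60 in WT1 to WT3 and 7.11, 7.41 and 6.88 in KO1 to KO3, gave -0.57 ± 0.16 (SE, limma adjusted p = 0.117). The rise was not called without WT2, WT3, KO1 or KO3, at 0.91, 0.88, 0.96 and 0.98, nor with RNA quality in the fit, at 0.34, nor under further quantile normalization or unmoderated variances.

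The 3 IAP genes also differed in direction. Birc2 (cIAP1), a ubiquitin ligase of the tumour necrosis factor receptor complex, stood at 10.62, 10.70 and 10.49 in WT1 to WT3 and 10.31, 10.03 and 9.82 in KO1 to KO3, with the groups apart and a change of -0.55 ± 0.15 (SE, limma adjusted p = 0.117). Its neighbour Birc3 (cIAP2) stood at 12.02, 12.42 and 11.86 in WT1 to WT3 and 11.88, 11.55 and 11.53 in KO1 to KO3 on the brightest probe set, where KO1 and WT3 were level, with a change of -0.45 ± 0.18 (SE, limma adjusted p = 0.222). The other Birc3 probe set, at 7.02, 6.64 and 5.98 in WT1 to WT3 and 7.83, 7.40 and 7.30 in KO1 to KO3, had all KO mice above all WT mice and a change of 0.96 ± 0.27 (SE, limma adjusted p = 0.124). That probe set was called without WT1, at 1.20, with ribosomal centring, at 1.02, and with the immune markers in the fit, at 1.22. With RNA quality in the fit it was at 0.42 and not at an unadjusted p under 0.05, and the mean of both Birc3 probe sets was higher in KO by 0.25.

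Xiap, the inhibitor that binds caspases directly, was the only gene whose brightest probe set was higher in KO at an unadjusted p under 0.05. It stood at 9.24, 9.26 and 9.24 in WT1 to WT3 and 9.63, 9.46 and 9.68 in KO1 to KO3, with almost no spread in WT, means of 9.25 ± 0.01 (SD, n = 3 mice) for WT and 9.59 ± 0.11 (SD, n = 3 mice) for KO, and a change of 0.34 ± 0.11 (SE, limma adjusted p = 0.151). A dim probe set stood at 5.27, 5.05 and 4.81 in WT1 to WT3 and 6.42, 6.03 and 6.76 in KO1 to KO3 and rose by 1.36 ± 0.21 (SE, limma adjusted p = 0.0525), or 2.56-fold. That rise was called in every alternative that kept the probe set except with RNA quality in the fit, at 1.05, and at a limit of 0.05 on the adjusted p, and the filter on dim values removed it. The 5 remaining Xiap probe sets ranged from -0.51 to 0.24, none at an unadjusted p under 0.05.

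**Figure D3:**
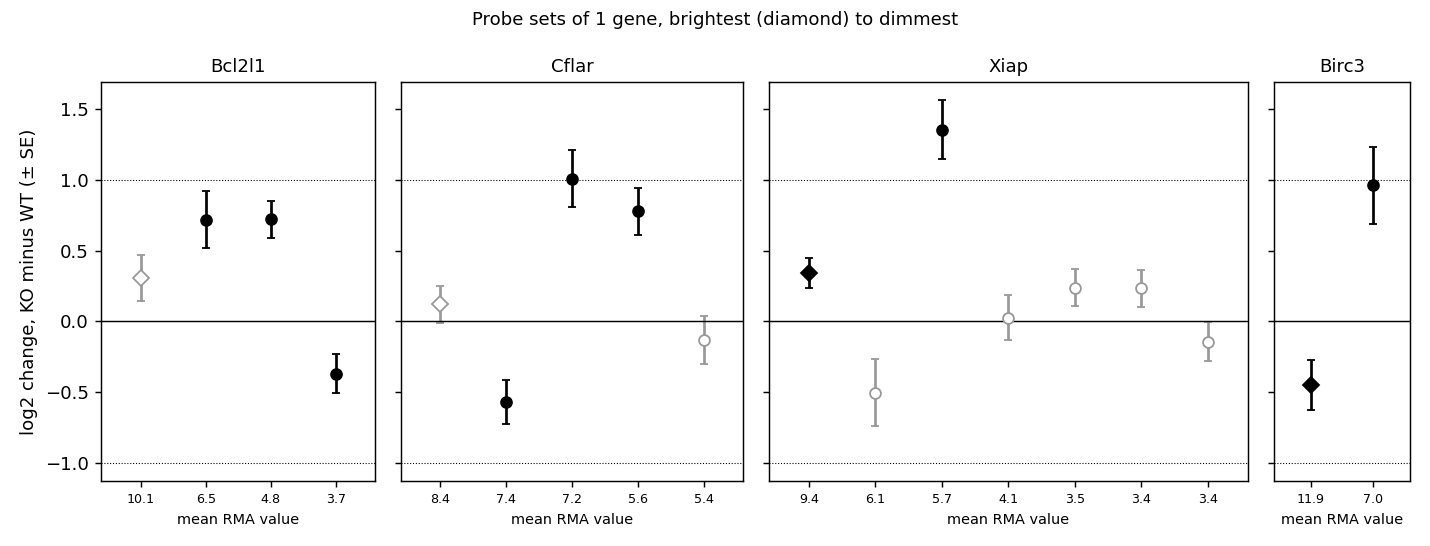
The log2 change, KO minus WT, with the standard error from limma, of every probe set of Bcl2l1, Cflar, Xiap and Birc3, from brightest (diamond) to dimmest with the mean RMA value under each; filled points have an unadjusted p under 0.05 and dotted lines mark 2-fold. Filled points lie on both sides of 0 for Bcl2l1, Cflar and Birc3, and 1 probe set each of Cflar and Xiap lies above the upper dotted line.

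Over the 50 probe sets that were not the brightest of their gene, 20 were higher and 30 lower in KO. At an unadjusted p under 0.05, 6 were higher (background 14% of such probe sets) and 4 were lower (8.85%). Of all 83 probe sets 3 were called, beside 1.99% of all probe sets tested. By any probe set, 2 of the 33 genes were called higher, Cflar and Xiap, against 2.95% of all genes, and 1 was called lower against 0.55%. Of all probe sets that are not the brightest of their gene, 3.19% were called higher. For 3 genes, Bcl2l1, Cflar and Birc3, probe sets passed an unadjusted p of 0.05 in both directions. For Bcl2l1 the lower one was its dimmest, below the mean log2 value of 6 used to filter dim probe sets, so it carries little weight. Where on the transcripts these probe sets lie was not examined here, and the 3′ minus 5′ difference of the arrays differed between the groups as given above.

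Differences between antagonists were taken within each array, on brightest probe sets, so that only their shift between genotypes is read. Xiap minus Diablo was 0.57, 0.65 and 0.23 in WT1 to WT3 and 0.9998, 0.92 and 1.15 in KO1 to KO3, higher by 0.54 in KO with the groups apart. Cflar minus Casp8 was -1.27, -1.30 and -1.44 in WT and -1.10, -0.89 and -1.14 in KO, higher by 0.29 with the groups apart. For both the exact permutation test, two-sided, gave p = 0.1, the smallest that 3 mice against 3 allow, and 0.15 after adjustment over 3 such differences. Mcl1 minus Bcl2l11 was 3.25, 3.62 and 4.68 in WT and 3.44, 2.75 and 3.08 in KO, a shift of -0.76 with overlapping groups (exact permutation test, two-sided, p = 0.2, adjusted 0.2).

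**Figure D4:**
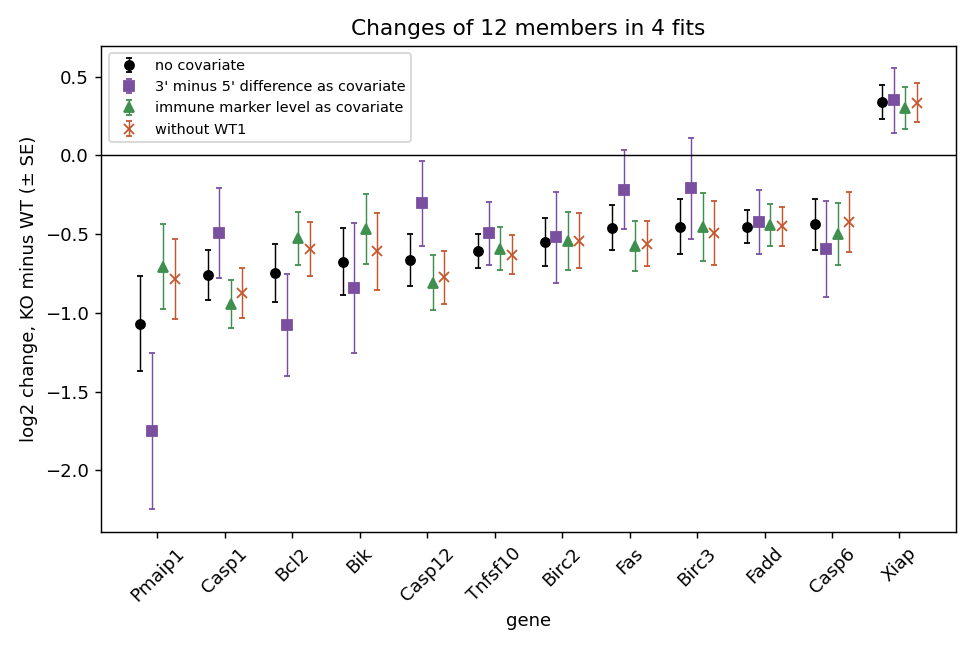
The log2 change, KO minus WT, with its standard error, of the 12 genes with an unadjusted p under 0.05, in limma without a covariate, with the 3′ minus 5′ difference of the arrays, with the immune marker level, and without WT1. All 12 keep their sign in the 4 fits; with the 3′ minus 5′ difference only Pmaip1, Bcl2 and Tnfsf10 keep an unadjusted p under 0.05.

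The plot of these 12 genes in 4 fits shows where the error bars widen. With RNA quality as a covariate, Pmaip1 was at -1.75, Bcl2 at -1.08 and Tnfsf10 at -0.49, and those 3 kept an unadjusted p under 0.05. Because that covariate did not overlap between the genotypes, keeping or losing the limit in this fit does not separate RNA quality from genotype. Birc2, Fadd and Xiap were at -0.52, -0.42 and 0.35, close to their values without the covariate but with wider errors. With the immune markers as a covariate, 9 of the 12 kept an unadjusted p under 0.05, and Bik, Birc3 and Xiap did not, at -0.47, -0.45 and 0.30.

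Around these genes, 91 of 106 further genes of the same pathways were measured. On the brightest probe set 4 were called, all lower in KO, and at an unadjusted p under 0.05 there were 18 lower and 6 higher. Over all genes 0.462% were called lower, and 13% were lower and 6.17% higher at an unadjusted p under 0.05. Their median change was -0.07. Of 15 other BCL2 family genes, 5 were lower and 2 higher at that limit. The same counts were 4 and 1 of 10 other caspase genes, 3 and 2 of 29 other death receptor genes, 5 and 0 of 20 other mitochondrial and IAP genes, and 1 and 1 of 17 genes of the p53 pathway.

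Fasl, the ligand of Fas, which lymphocytes are known to make, stood at 5.61, 5.65 and 5.17 in WT1 to WT3 and 4.19, 4.27 and 4.36 in KO1 to KO3, fully apart, and fell, with a change of -1.21 ± 0.15 (SE, limma adjusted p = 0.0459). None of the 16 markers of lymphocytes lay above the 75th percentile on every array, and all 16 were lower in KO. Levels varied between arrays, and Cd3d ran from 10.27 in WT1 to 5.25 in KO3. For 2 of the 16, Gzma at -0.71 and Gzmb at -0.99, the groups were apart. The immune marker covariate is 1 median over 32 markers of macrophages, dendritic cells and lymphocytes. Whether the Fasl change follows immune cell content was not tested. With the immune markers in the fit Fasl was at -1.06 and still called, as it was in every other fit that held its brightest probe set. The filter on dim values removed that probe set, and the mean of its 2 probe sets was not called. Bcl2l15, a BCL2 relative with a proapoptotic form, stood at 7.30, 6.44 and 6.08 in WT1 to WT3 and 4.83, 4.87 and 5.32 in KO1 to KO3 and fell, with a change of -1.60 ± 0.31 (SE, limma adjusted p = 0.067). With RNA quality in the fit it was at -2.55 and still called, but the filter on dim values removed its probe set.

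Bag4, which silences tumour necrosis factor receptors, stood at 7.17, 7.60 and 7.99 in WT1 to WT3 and 6.64, 6.13 and 6.80 in KO1 to KO3 and fell, with a change of -1.07 ± 0.25 (SE, limma adjusted p = 0.0896). Its call was lost without WT2, WT3 or KO2, at -1.06, -0.87 and -0.87. Naip5, which senses bacterial flagellin and has near-identical copies that its probes could share, stood at 4.51, 5.12 and 6.17 in WT1 to WT3 and 4.03, 3.71 and 3.85 in KO1 to KO3 and fell, with a change of -1.41 ± 0.37 (SE, limma adjusted p = 0.112). Its call was lost without any single array other than WT1, at -0.96 to -1.49, and both calls were lost with RNA quality in the fit, at -0.58 for Bag4 and -0.55 for Naip5. The mean of all Bag4 probe sets was not called either. With unmoderated variances the calls of Bcl2l15, Bag4 and Naip5 were all lost. The filter on dim values removed the probe set of Naip5.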

How the data were processed

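Organoid RNA of 3 WT and 3 KO mice was measured on 1 array each. The deposited values are log2 intensities that the authors obtained by RMA, whose version is not given in the sources used here, and their methods name simpleaffy and limma. These values were not normalized again. Of 45101 probe sets, the 64 controls were used for RNA quality alone. Of the 45037 tested, 34945 carry 1 symbol in the platform annotation, 932 several and 9160 none. Current RefSeq symbols, through the gene identifier, were the same for all 33 genes.

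Both genotypes entered 1 fit in R 4.3.3 (lmFit and eBayes of limma 3.58.1, no covariate). The step was tested on simulated data. The differences between antagonists had exact permutation tests, and 3 of 5 intended ones could be formed without Bax. The genes and lists were chosen with earlier results of these data known. Named with values were genes at an unadjusted p under 0.05, the gene with the largest change in each role, genes in a difference between antagonists, other called probe sets, and called genes of the wider pathways. Probe sets of the other sign were added after their values had been seen. Bcl2l1, Casp4, Apaf1 and Tradd were given values outside this rule. Promoters were matched by gene identifier. Python 3.11.15 with matplotlib 3.10.9 drew the figures. Alternatives covered normalization, scaling, dim probe sets, variance, array weights, covariates, the replicate block, limits, choice of probe set and each array left out. The number of arrays limits the precision.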

Additional observations from a re-analysis of the deposited data

How the results depend on the processing

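The 12 genes at an unadjusted p under 0.05 kept their sign in every alternative except Birc3, whose mean over both probe sets was higher in KO. The number at that limit among all 33 was 4 with the RNA quality covariate (Pmaip1, Bcl2 and Tnfsf10 lower, Casp4 higher) and 10 to 14 without single arrays. The 1 call on the brightest probe set became 0 with cyclic loess, with centring on ribosomal protein genes, with the RNA quality covariate, with unmoderated variances and at an adjusted p under 0.05, and 0 to 1 without single arrays. It became 5, all lower, at 1.5-fold and 3 with the probe set of smallest p. With the immune marker covariate, chosen after seeing the data, it was 1, Bcl2l11. The 3 genes called by any probe set became 1 with the RNA quality covariate (Bcl2, by another probe set at -1.48), 1 with unmoderated variances, 0 at an adjusted p under 0.05, 9 at 1.5-fold and 1 to 3 without single arrays. The share of all genes called was not counted at 1.5-fold, with the probe set of smallest p or with another fit. Those counts therefore show how the calls depend on the rule and are not a result about these genes.

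The 4 further pathway genes called became 1 at a mean log2 value of at least 6, 1 with unmoderated variances, 1 at an adjusted p under 0.05, 2 with the mean of all probe sets, 7 with the immune marker covariate, 7 at 1.5-fold and 2 to 7 without single arrays, with 2 without WT2 or KO2 and 7 without WT1. Here too the share of all genes was not counted at 1.5-fold or with another fit. The median change of the 33 genes was -0.13 with cyclic loess, -0.11 with ribosomal centring, -0.33 with the immune marker covariate, -0.11 with the mean of all probe sets and -0.25 to -0.14 without single arrays, while that of all genes stayed within -0.08 and -0.01. With the mean of all probe sets Wwox was at -0.85 and no longer called; without single arrays it ran from -1.80 to -1.61.

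Mcl1 minus Bcl2l11 shifted by -0.16 with the RNA quality covariate, -1.35 with the immune marker covariate, -0.0345 with the mean of all probe sets and -1.06 to -0.35 without single arrays. With the mean of all probe sets Cflar minus Casp8 shifted by 0.41 and Xiap minus Diablo by 0.34, and without single arrays by 0.21 to 0.34 and 0.42 to 0.63. The cause of these differences was not tested.

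Deviations of same-numbered arrays correlated at -0.16, 0.16 and 0.10, within the range of -0.26 to 0.20 for differently numbered arrays. With 3 mice a group this cannot decide whether replicate numbers pair the mice. With the replicate number as a block, 1 gene was called on the brightest probe set, 3 by any probe set, 13 were at an unadjusted p under 0.05 and 4 further pathway genes were called. The 3 mice a group, and dim probe sets such as that of Xiap, limit what these arrays can resolve.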
